A study of Mus musculus with 16 samples.

Results

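Apolipoproteins are the proteins that carry lipid in blood, and Mttp, the microsomal triglyceride transfer protein, loads lipid onto the largest of them. The transcripts of 10 such genes (Apob, Mttp, Apoa1, Apoa2, Apoe, Apoc1, Apoc2, Apoc3, Apoa4 and Apoa5) were followed in cultured mouse hepatocytes. They were chosen by symbol, matched through mouse Ensembl gene IDs, and are 10 of the 55416 genes of the table. The cells were primary hepatocytes in 4 groups of 4 samples: HKO cells given 0.4 mM palmitic acid (PA), HKO cells given vehicle, FLOX cells given PA and FLOX cells given vehicle, all for 24 h. HKO cells were Alb-cre+, so that Cre recombinase driven by the albumin promoter removes Smpd3 in hepatocytes by a Cre-loxP cross, and FLOX cells were Alb-cre-. Smpd3 encodes a neutral sphingomyelinase, which splits sphingomyelin of membranes into ceramide and phosphocholine, and PA is a saturated fatty acid that the design uses as a culture model of steatohepatitis. The labels give no age, sex or strain of the mice, and do not say whether the 4 samples of a group came from separate mice or cultures. The p-values therefore rest on a spread between samples that may be no more than technical.

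Hepatocytes secrete very-low-density lipoproteins, each built around a single apoB molecule that Mttp lipidates in the endoplasmic reticulum, and they also supply most of the apoA-I and apoA-II of high-density lipoproteins (HDL). The smaller apolipoproteins ride on the surface of both particles. ApoE is the ligand for hepatic uptake, apoC-II activates lipoprotein lipase, apoC-III restrains it, and apoA-V favours it, while apoA-IV, known best from the intestine, is also made in mouse liver when triglyceride accumulates. The genes lie in clusters: Apoa1, Apoc3, Apoa4 and Apoa5 are neighbours on chromosome 9, and Apoe, Apoc1 and Apoc2 are neighbours on chromosome 7. Apob is on chromosome 12, Mttp on chromosome 3 and Apoa2 on chromosome 1.

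Levels were given by the authors as TPM, a length-corrected share of all transcripts of a sample, so levels can be compared between genes, and depth is unknown. Smpd3 was low in every HKO sample, at 6.44 to 9.15 TPM with PA and 4.25 to 5.89 TPM with vehicle, against 42.5 to 47.8 TPM in FLOX cells with PA and 27.8 to 37.1 TPM in FLOX cells with vehicle. All 16 hepatocyte markers reached 1 TPM in a group mean. Their summed level was 41530 to 42583 TPM in HKO cells with PA, 51280 to 52945 TPM in HKO cells with vehicle, 35806 to 37514 TPM in FLOX cells with PA and 44756 to 45801 TPM in FLOX cells with vehicle. This sum was lower with PA and higher in HKO cells, but most of it was Alb and Trf. Not every marker followed it: Hnf4a, Cyp2e1, Asgr1, Asgr2 and Hpd had lower means in HKO cells under both treatments. Cyp2e1 averaged 76.9 TPM with PA and 58.8 TPM with vehicle in HKO cells, against 159 and 155 TPM in FLOX cells. Of 16 macrophage markers 2 reached 1 TPM (Cd68 and Mpeg1), Timd4 was at 0 in all samples, and the other 14 were at most 1.37 TPM. Of 11 endothelial markers 4 did so, with sums of 5.63 to 9.75 TPM over all samples, and of 11 stellate cell markers 0 did, with sums of 0.71 to 2.27 TPM. Of 8 cholangiocyte markers 6 did, with Cftr at 0 and sums of 629 to 678 TPM in HKO cells with PA, 496 to 523 TPM in HKO cells with vehicle, 465 to 503 TPM in FLOX cells with PA and 381 to 396 TPM in FLOX cells with vehicle. Of 10 enterocyte markers 3 did, with Sis, Cdx1 and Cdx2 at 0 and sums of 29.2 to 47.3 TPM over all samples. What part these markers have in the results was not tested. In such bulk samples, fewer cells of a type and less RNA per cell cannot be told apart. A pair of libraries stood apart from their groups, FLOX PA replicate 1 and FLOX vehicle replicate 1, at opposite ends of principal component 3 (19.0 and -16.1). That component held 7.53% of the variance, and FLOX PA replicate 2 (-14.1) and HKO vehicle replicate 2 (-12.0) also lay low on it. Long transcripts were under-represented relative to short ones in FLOX PA replicate 1, where the median of the genes with the longest transcripts minus that of the shortest was -0.22 on the log2 scale, against 0.059 to 0.14 in the other FLOX PA samples. FLOX vehicle replicate 1 went the other way, at 0.084 against -0.20 to -0.12 in the rest of its group. HKO samples had 0.029 to 0.18 with PA and -0.099 to 0.076 with vehicle. The HKO vehicle samples other than replicate 2 (0.076) lay below all HKO PA samples. Among the other FLOX samples the imbalance thus ran with treatment. Leaving out both libraries therefore aligns it with PA in FLOX cells, and its part in those values was not tested. The 10 genes differ widely in length, with longest transcripts of 13934 bases for Apob, 3963 for Mttp, 2515 for Apoa5, 1815 for Apoa4 and 518 to 1408 for the other 6, and values without both libraries are given where a call or a direction changed.

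The promoters of Apoa1, Apoa4 and Apoa5, which lie on the same strand within 1 cluster, are shown because transcripts of the first fell with PA while those of the second rose. Each run is the 250 bases before a RefSeq transcription start on the + strand of GRCm38.p6: chr9:46228380-46228629 for Apoa1, chr9:46240594-46240843 for Apoa4, and chr9:46268358-46268607 for the more upstream of the Apoa5 starts in that table. Capitals mark matches to the motifs searched.
Apoa1: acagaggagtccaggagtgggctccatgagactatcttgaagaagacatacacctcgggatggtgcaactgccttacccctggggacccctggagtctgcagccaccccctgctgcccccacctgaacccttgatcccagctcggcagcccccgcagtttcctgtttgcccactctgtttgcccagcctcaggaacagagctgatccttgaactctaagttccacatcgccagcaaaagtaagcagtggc
Apoa4: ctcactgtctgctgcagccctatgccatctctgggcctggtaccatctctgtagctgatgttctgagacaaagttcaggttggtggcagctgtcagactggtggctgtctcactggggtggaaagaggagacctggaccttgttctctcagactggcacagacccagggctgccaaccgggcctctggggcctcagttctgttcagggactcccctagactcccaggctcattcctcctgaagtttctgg
Apoa5: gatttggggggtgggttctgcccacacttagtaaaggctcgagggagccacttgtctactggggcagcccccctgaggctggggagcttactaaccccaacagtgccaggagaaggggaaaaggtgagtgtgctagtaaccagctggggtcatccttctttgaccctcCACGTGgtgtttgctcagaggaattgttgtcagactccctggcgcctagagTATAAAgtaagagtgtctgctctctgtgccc
The motifs were searched on both strands: a TATA box (TATAAA), an E-box (CACGTG), the nuclear receptor element AGGTCA, the HNF4 core AAAGTCC and a direct repeat of such elements spaced by 1 base (AGGNCAAAGGNCA). In the Apoa5 window the E-box lay 82 to 77 bases and the TATA box 31 to 26 bases before the start, and the Apoa1 and Apoa4 windows held none of these letters. The bases after this Apoa5 start were not found in an annotated Apoa5 transcript, while those after the other start were. Before that other start the E-box lay at 107 to 102 bases and the TATA box at 56 to 51 bases. Of 32851 promoters of this length, 12.4% held the TATA box, 6.02% the E-box, 14.0% the AGGTCA element, 3.58% the HNF4 core and 0.0944% the direct repeat. Of the other genes with an entry, Apob had a TATA box 60 to 55 bases and Apoc2 an AGGTCA element 115 to 110 bases before the start, and Mttp had no match. Apoa2 and Apoe have several starts: windows of both held a TATA box, and a window of Apoa2 held an AGGTCA element and an HNF4 core. The bases after the start of that last window were not found in an annotated Apoa2 transcript. RefSeq promoters were found for 8 of the 10 genes, and Apoc1 and Apoc3 are named only.

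The 10 genes together made up a large share of the transcripts of these cells. Their summed level was 41436 ± 919 TPM in HKO cells with PA, 45075 ± 296 TPM in HKO cells with vehicle, 44795 ± 3639 TPM in FLOX cells with PA and 48075 ± 893 TPM in FLOX cells with vehicle (SD over 4 samples, as with every mean given). As shares of the summed TPM of all genes these were 4.24% in HKO cells with PA, 4.58% in HKO cells with vehicle, 4.58% in FLOX cells with PA and 4.89% in FLOX cells with vehicle. The wide SD of FLOX cells with PA comes from replicate 1, which held the highest sum of its group, 50059 TPM, against 42046 TPM in the lowest. Apoe and Apoa1 led in every group. In HKO cells Apoe came first, with 12498 TPM against 8934 TPM for Apoa1 with PA, and 14008 TPM against 12974 TPM with vehicle. In FLOX cells with PA both averaged 11678 and 11673 TPM and overlapped, and in FLOX cells with vehicle Apoa1 was first with 15719 TPM and Apoe next with 13297 TPM. Apoa2 ranked 3 in every group, and Apob, Apoa5 and Mttp were the last 3 in that order. The gene that moved in the order was Apoa4: it ranked 4 in HKO cells with PA and 5 in FLOX cells with PA, against 7 in both vehicle groups. In FLOX cells with PA its range overlapped those of its neighbours Apoc1 and Apoc2. Apoc2 and Apoc3 overlapped in every group except HKO cells with vehicle, where Apoc3 was higher.

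**Figure D1:**
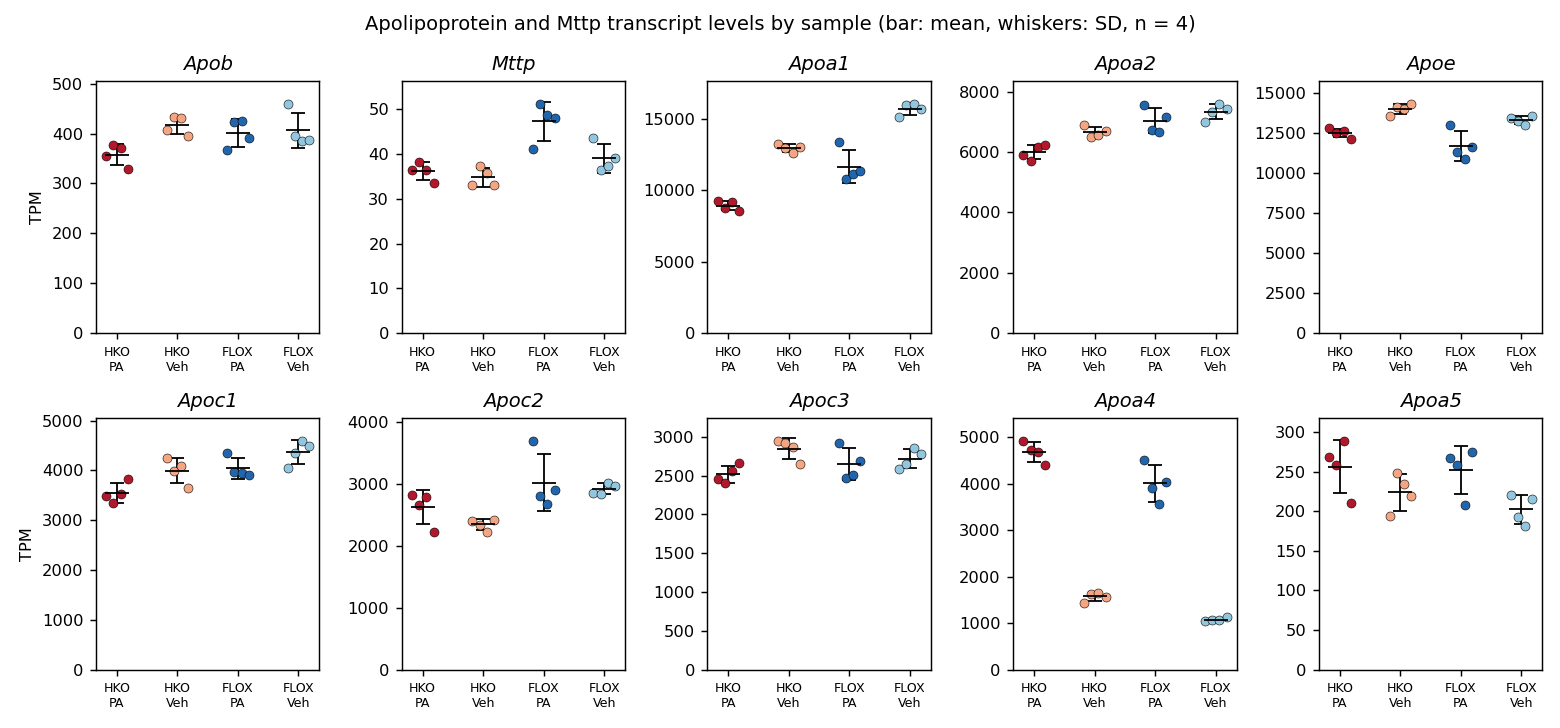
Level of each of the 10 genes in TPM (linear axis from 0) in the 4 samples of each group, with HKO cells left of FLOX cells and PA left of vehicle. Points are samples, the long dash is the mean and whiskers are the SD. Apoa4 lies between 3558 and 4925 TPM in all 8 PA samples and between 1049 and 1650 TPM in all 8 vehicle samples, while the group means of Apob lie between 358 and 417 TPM.

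The make-up of the sum shifted with PA. Apoa4 held 11.3% of the sum in HKO cells with PA and 3.49% in HKO cells with vehicle, and 8.94% in FLOX cells with PA and 2.23% in FLOX cells with vehicle. Apoa1 took the smaller share with PA: 21.6% against 28.8% with vehicle in HKO cells, and 26.0% against 32.7% with vehicle in FLOX cells. Apoe held 30.2% with PA and 31.1% with vehicle in HKO cells, and 26.1% with PA and 27.7% with vehicle in FLOX cells. Of the 3 C apolipoproteins, Apoc1 held 8.56% to 9.08% and Apoc3 5.65% to 6.32% over the 4 groups. Apoc2 held 6.31% with PA and 5.20% with vehicle in HKO cells, and 6.71% with PA and 6.07% with vehicle in FLOX cells. Mttp, a transfer protein of assembly and not a particle protein, was 0.0773% to 0.107% of the sum.

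**Figure D2:**
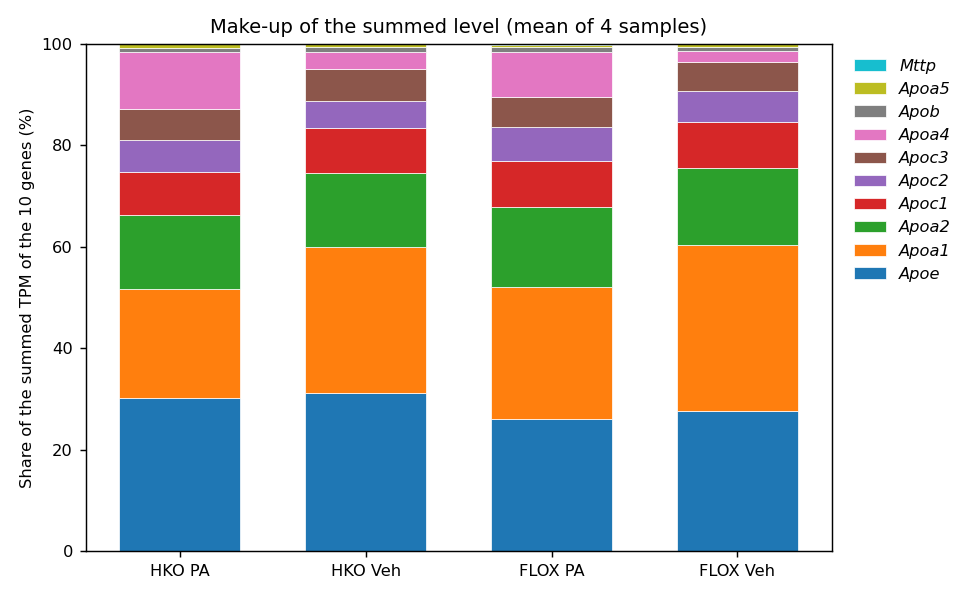
Share of the summed TPM of the 10 genes taken by each gene, in percent, from the mean of 4 samples per group. The Apoa4 segment is 11.3% and 8.94% with PA in HKO and FLOX cells, and 3.49% and 2.23% with vehicle.

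The design asks first what PA does to cells of each genotype. With PA, Apoa4 was several times higher in both genotypes and Apoa1 and Apoe were lower in both. In HKO cells 6 of the 10 genes fell (Apoa1, Apob, Apoc3, Apoc1, Apoe and Apoa2), 1 rose (Apoa4) and 3 did not pass the test (limma on log2(TPM + 1), adjusted p under 0.05 over 11858 genes). All differences below are log2 fold changes on that scale, given ± SE. In FLOX cells 2 fell (Apoa1 and Apoe), 3 rose (Apoa4, Apoa5 and Mttp) and 5 did not pass. Of all genes tested, 42.5% passed in HKO cells, 29.4% higher and 13.1% lower, and 34.4% passed in FLOX cells, 23.0% higher and 11.5% lower. The median log2 fold change of the 10 genes was -0.16 in HKO cells and -0.028 in FLOX cells, beside 0.11 and 0.096 over all genes tested. The 4 PA samples and the 4 vehicle samples did not overlap for 5 of the 10 genes in HKO cells and 3 in FLOX cells, against 41.1% and 29.0% of all genes. The scaling matters for such splits. TPM sets each sample to the same total, and median-ratio scaling moved the median over all genes to 0.0059 in HKO cells and 0.0085 in FLOX cells, with 47.0% and 45.5% of the called genes higher against 69.3% and 66.7%. Of the 10 genes, median-ratio scaling left 1 higher and 6 lower in HKO cells and 2 and 2 in FLOX cells. Quantile normalization left 1 higher and 2 lower in HKO cells and 3 and 1 in FLOX cells.

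The second question is what the loss of Smpd3 does under each treatment. Apoa4 was higher and Apoa1 and Apoa2 were lower in HKO cells under both treatments, and Mttp was lower in HKO cells with PA. With PA 1 of the 10 genes was higher in HKO cells (Apoa4), 4 were lower (Apoa1, Mttp, Apoa2 and Apoc1) and 5 did not pass. With vehicle 1 was higher (Apoa4), 3 were lower (Apoc2, Apoa1 and Apoa2) and 6 did not pass. Of all genes tested, 9.74% passed with PA, 4.24% higher and 5.50% lower, and 11.7% passed with vehicle, 4.11% higher and 7.56% lower. The median of the 10 genes was -0.18 with PA and -0.046 with vehicle, beside -0.0077 and -0.023 over all genes. HKO and FLOX samples did not overlap for 4 of the 10 genes with PA and 5 with vehicle, against 13.9% and 17.8% of all genes. With median-ratio scaling 0 of the 10 were higher and 3 lower with PA (Mttp, Apoa1 and Apob), and 1 was higher and 0 lower with vehicle (Apoa4). Among all called genes that scaling put 55.4% higher with PA and 57.3% higher with vehicle, against 43.5% and 35.2% as TPM. Leaving out any 1 of HKO PA replicates 1, 2 and 3 or FLOX PA replicates 2 and 3 left 3 of the 10 past the threshold with PA, and leaving out any 1 of HKO vehicle replicates 2 and 3 or FLOX vehicle replicates 3 and 4 left 2 with vehicle. With quantile normalization 0 were higher and 4 lower with PA, and 2 higher and 4 lower with vehicle. The comparisons by genotype and by treatment share their samples, so a gene's values in them are set side by side and not counted as separate evidence.

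**Figure D3:**
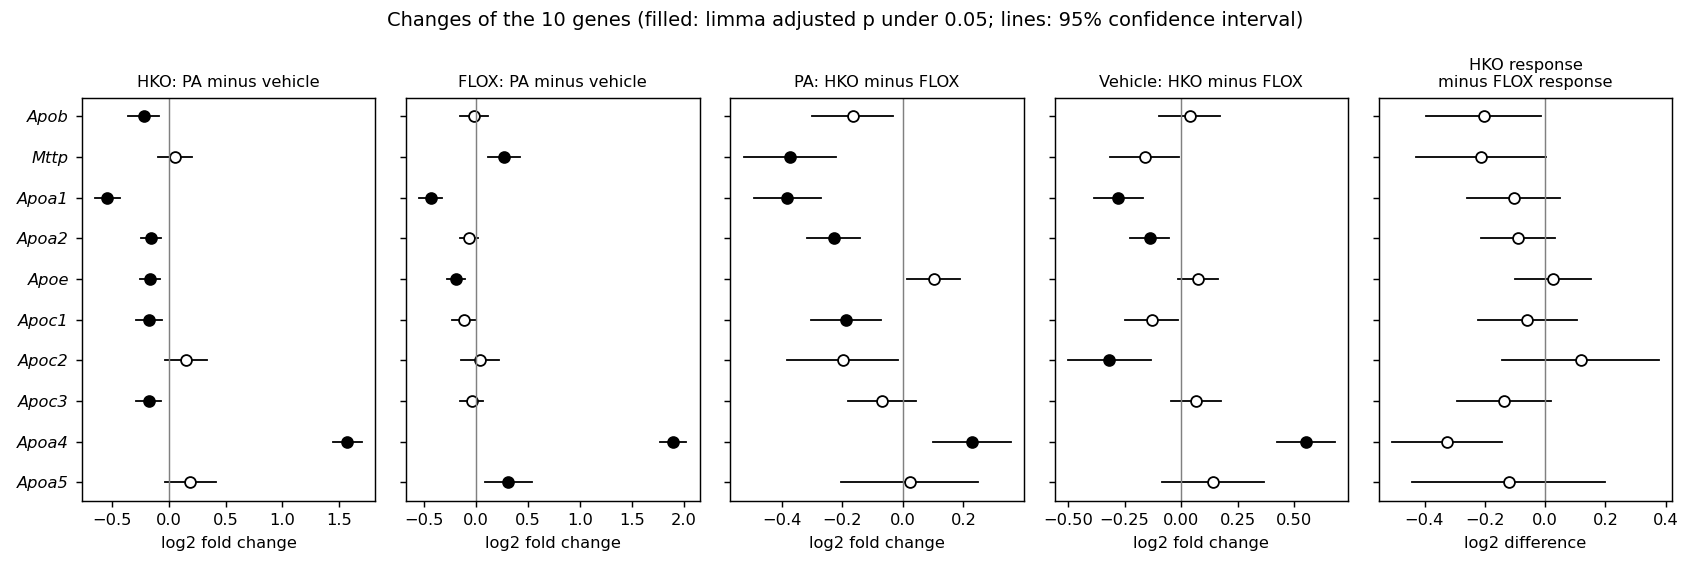
Log2 fold change of log2(TPM + 1) for the 10 genes in 5 comparisons, with 95% confidence intervals as lines and filled points where the limma adjusted p was under 0.05. The axis differs between panels. Apoa4 is the farthest right in the first 2 panels at 1.57 and 1.90, and no point of the last panel, the HKO response minus the FLOX response, is filled.

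Apob (ENSMUSG00000020609), the structural protein of very-low-density and low-density lipoproteins, passed the test with PA in HKO cells and in no other comparison. Its level was 354, 378, 370.5 and 329 TPM in HKO cells with PA, against 408, 433, 431 and 395 TPM in HKO cells with vehicle. All PA samples lay below all vehicle samples, and Apob fell by 0.22 ± 0.063 on the log2 scale (limma adjusted p = 0.0104), which quantile normalization left at -0.17 (adjusted p = 0.0553). A correction for transcript length gave -0.36 (adjusted p = 3.38e-05) and median-ratio scaling -0.34 (adjusted p = 1.33e-05). In FLOX cells the Apob level was 367, 422, 426 and 392 TPM with PA, against 459.6, 396, 386 and 386 TPM with vehicle. The groups overlapped, the log2 fold change was -0.017 ± 0.063 (95% confidence interval -0.15 to 0.12, limma adjusted p = 0.862), and its sign turned without FLOX vehicle replicate 1 (0.043) or FLOX PA replicate 1 (0.026). Without both it was 0.086 (adjusted p = 0.197), while a correction for transcript length gave -0.21 (adjusted p = 0.00466). Between genotypes Apob differed by -0.17 ± 0.063 with PA (limma adjusted p = 0.121), which passed without the same 2 libraries (-0.21, adjusted p = 0.0143), with the length correction (-0.18, adjusted p = 0.0320), median-ratio scaling (-0.16, adjusted p = 0.0329) and quality weights (-0.18, adjusted p = 0.0388), and by 0.038 ± 0.063 with vehicle (limma adjusted p = 0.790). The HKO response minus the FLOX response was -0.20 ± 0.089 (95% confidence interval -0.39 to -0.014, limma adjusted p = 0.609), and -0.31 without both FLOX libraries numbered 1 (adjusted p = 0.0894).

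Mttp (ENSMUSG00000028158), the lipid transfer protein without which apoB is not secreted, passed the test with PA in FLOX cells and between genotypes with PA. It was 41.1, 51.2, 48.8 and 48.2 TPM in FLOX cells with PA, against 43.5, 36.4, 37.3 and 39.1 TPM with vehicle. The lowest PA sample and the highest vehicle sample, both replicate 1, crossed, and the other 3 of each group did not. Mttp rose by 0.27 ± 0.072 (limma adjusted p = 0.00886), and by 0.39 without both FLOX libraries numbered 1 (adjusted p = 1.94e-04). In HKO cells it was 36.5, 38.4, 36.6 and 33.5 TPM with PA, against 33.1, 37.4, 35.7 and 33.1 TPM with vehicle, which overlapped (0.055 ± 0.072, 95% confidence interval -0.098 to 0.21, limma adjusted p = 0.571), and the sign of this small difference turned under median-ratio scaling, quantile normalization and the length correction. With PA every HKO sample was below every FLOX sample, and Mttp was lower in HKO cells by a log2 fold change of -0.37 ± 0.072 (limma adjusted p = 0.00306), that is 0.765 times the FLOX mean. With vehicle the difference was -0.16 ± 0.072 (limma adjusted p = 0.182), which passed with the length correction (-0.15, adjusted p = 0.0329). The difference between the responses, -0.21 ± 0.10, did not pass (95% confidence interval -0.43 to 0.0021, limma adjusted p = 0.656), nor did the -0.33 without both FLOX libraries numbered 1 (adjusted p = 0.112). Mttp overlaps Trmt10a, which is read from the other strand and was at most 12.4 TPM. The library kit was stranded, but whether counting used strand is not stated.

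Apoa1 (ENSMUSG00000032083), the main protein of HDL and the activator of the cholesterol-esterifying enzyme Lcat, was lower with PA and lower in HKO cells, and in none of the 4 comparisons did the groups overlap. Its level was 9225, 8754, 9214 and 8544 TPM in HKO cells with PA, against 13249, 13000.2, 12595 and 13049.8 TPM with vehicle. FLOX cells had 13369.6, 10829, 11155 and 11338 TPM with PA, against 15144, 15954, 16058 and 15721 TPM with vehicle. With PA Apoa1 fell by 0.54 ± 0.051 in HKO cells and by 0.43 ± 0.051 in FLOX cells (limma adjusted p = 6.62e-07 and 8.98e-06), to 0.689 and 0.743 times the vehicle means. HKO cells had less of it than FLOX cells, by a log2 fold change of -0.38 ± 0.051 with PA and -0.28 ± 0.051 with vehicle (limma adjusted p = 0.000125 and 0.00218). With median-ratio scaling the difference with vehicle did not pass (-0.24, adjusted p = 0.0669). The difference between the responses was -0.10 ± 0.073 (95% confidence interval -0.26 to 0.050, limma adjusted p = 0.811).

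Apoa2 (ENSMUSG00000005681), the next most abundant HDL protein, showed the same signs at smaller size. It averaged 5994 ± 237 TPM in HKO cells with PA, 6659 ± 174 TPM in HKO cells with vehicle, 7029.8 ± 418 TPM in FLOX cells with PA and 7331 ± 250 TPM in FLOX cells with vehicle. With PA it fell by 0.15 ± 0.041 in HKO cells, where groups did not overlap (limma adjusted p = 0.00734), but quantile normalization turned the sign (0.10, adjusted p = 0.0926). In FLOX cells it differed by -0.062 ± 0.041 (limma adjusted p = 0.261), by -0.12 without both FLOX libraries numbered 1 (adjusted p = 0.0172), by -0.098 without FLOX PA replicate 1 alone (adjusted p = 0.0468), by -0.10 with the length correction (adjusted p = 0.0264), by -0.091 with quality weights (adjusted p = 0.0376) and by 0.17 with quantile normalization (adjusted p = 0.0114). HKO cells were lower than FLOX cells by a log2 fold change of -0.23 ± 0.041 with PA and -0.14 ± 0.041 with vehicle (limma adjusted p = 0.00174 and 0.0396), with no overlap in either. With median-ratio scaling the difference with PA did not pass (-0.22, adjusted p = 0.0751). The difference with vehicle passed in 9 of 19 alternatives (adjusted p 0.00313 to 0.412) and was lost without any 1 of HKO vehicle replicates 2, 3 and 4 or FLOX vehicle replicates 2, 3 and 4 (adjusted p 0.0719 to 0.112).

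Apoa4 (ENSMUSG00000032080) changed most of the 10 genes with PA. Its level was 4925, 4722, 4671 and 4391 TPM in HKO cells with PA, against 1444, 1631, 1650 and 1573 TPM in HKO cells with vehicle. FLOX cells had 4519.5, 3915, 3558 and 4039.9 TPM with PA, against 1049, 1059.6, 1059 and 1123 TPM with vehicle. All PA samples lay far above all vehicle samples of their genotype. Apoa4 rose 2.97-fold in HKO cells and 3.74-fold in FLOX cells, which is 1.57 ± 0.061 and 1.90 ± 0.061 on the log2 scale (limma adjusted p = 3.40e-11 and 9.99e-12). These stood at the 99.5 and 99.8 percentiles of all genes tested, as a description of rank. With vehicle it was 1.47-fold higher in HKO cells than in FLOX cells, without overlap (0.55 ± 0.061, limma adjusted p = 1.56e-05). These 3 results passed in all alternatives run. With PA the groups overlapped and HKO cells were higher by 0.23 ± 0.061 (limma adjusted p = 0.0257), which passed in 8 of 19 alternatives (adjusted p 0.00271 to 0.120). It was lost without any 1 of HKO PA replicates 1, 2 and 3 or FLOX PA replicates 2, 3 and 4 (adjusted p 0.0507 to 0.0815) and under both other scalings. The HKO response minus the FLOX response was -0.33 ± 0.086 (95% confidence interval -0.51 to -0.14, limma adjusted p = 0.250). Gm47528 and Gm10680, on the other strand at Apoa4, were at most 4.01 and 2.47 TPM.

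Apoa5 (ENSMUSG00000032079), which promotes the clearance of triglyceride at the vessel wall, was far less abundant and varied more between samples. It was 268, 258, 289 and 210.5 TPM in HKO cells with PA, against 194, 248, 235 and 219 TPM with vehicle, and 267, 258, 208 and 275 TPM in FLOX cells with PA, against 220.5, 192, 182 and 216 TPM with vehicle. The groups overlapped in both genotypes where 1 PA sample in each lay among the vehicle values. In FLOX cells Apoa5 rose by 0.31 ± 0.11 (limma adjusted p = 0.0333), a result that passed in 9 of 19 alternatives (adjusted p 0.00842 to 0.131) and not without any 1 of FLOX PA replicates 1, 2 and 4 or FLOX vehicle replicates 2 and 3 (adjusted p 0.0678 to 0.101), nor without both FLOX libraries numbered 1 (0.32, adjusted p = 0.0509). In HKO cells the log2 fold change was 0.19 ± 0.11 (95% confidence interval -0.036 to 0.42, limma adjusted p = 0.164), and it passed without HKO PA replicate 4 (0.28, adjusted p = 0.0372). HKO and FLOX cells did not differ past the threshold, at 0.022 ± 0.11 with PA and 0.14 ± 0.11 with vehicle (limma adjusted p = 0.945 and 0.465).

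Apoe (ENSMUSG00000002985), the ligand of the low-density lipoprotein receptor family, was lower with PA in both genotypes. Its level was 12788, 12479, 12593 and 12131 TPM in HKO cells with PA, against 13567, 14136, 14021 and 14307 TPM with vehicle. FLOX cells had 12967, 11285, 10845 and 11613 TPM with PA, against 13428, 13259, 12979 and 13523 TPM with vehicle. No PA sample reached a vehicle sample of its genotype, and FLOX PA replicate 1 came closest. Apoe fell by 0.16 ± 0.042 in HKO cells and by 0.19 ± 0.042 in FLOX cells (limma adjusted p = 0.00502 and 0.00240). Under quantile normalization the sign turned in HKO cells (0.039, adjusted p = 0.465) and the call was lost in FLOX cells (-0.097, adjusted p = 0.0731). HKO cells had higher means under both treatments, by 0.10 ± 0.042 with PA, where groups overlapped, and 0.075 ± 0.042 with vehicle, where they did not, and neither passed (limma adjusted p = 0.162 and 0.298). Without FLOX PA replicate 1 the difference with PA passed (0.15, adjusted p = 0.00260), as it did without both FLOX libraries numbered 1 (adjusted p = 0.00343), with quality weights (0.14, adjusted p = 0.00903) and with the length correction (0.13, adjusted p = 0.0199). The length correction also gave a call with vehicle (0.13, adjusted p = 0.0196). Macrophages also make Apoe, Apoc1 and Apoc2. The summed macrophage markers were 84.2 to 110.2 TPM in HKO cells with PA, 64.3 to 74.6 TPM in HKO cells with vehicle, 58.1 to 71.4 TPM in FLOX cells with PA and 52.0 to 57.9 TPM in FLOX cells with vehicle. Nearly all of it was Cd68, and the 14 markers other than Cd68 and Mpeg1 had group means of at most 0.625 TPM.

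Of the C apolipoproteins, Apoc1 and Apoc3 fell with PA in HKO cells, Apoc2 did not pass there, and none passed with PA in FLOX cells. Apoc1 (ENSMUSG00000040564), a small protein that inhibits lipoprotein uptake and lipid-transfer enzymes, averaged 3544 ± 204 TPM in HKO cells with PA, 3993 ± 256 TPM in HKO cells with vehicle, 4039.8 ± 204 TPM in FLOX cells with PA and 4369 ± 242 TPM in FLOX cells with vehicle. It fell with PA in HKO cells by 0.17 ± 0.054 with overlapping groups (limma adjusted p = 0.0188), a call lost without HKO PA replicate 2 or HKO vehicle replicate 1 (adjusted p = 0.0640 and 0.0655), and with quantile normalization (-0.065, adjusted p = 0.321). In FLOX cells it differed by -0.11 ± 0.054 (limma adjusted p = 0.122), and by -0.15 without either FLOX PA replicate 1 or FLOX vehicle replicate 1 (adjusted p = 0.0430 and 0.0448). It was -0.18 without both (adjusted p = 0.0126), -0.15 with the length correction (adjusted p = 0.00324) and -0.16 with quality weights (adjusted p = 0.00971). With PA HKO cells were lower without overlap, by a log2 fold change of -0.19 ± 0.054 (limma adjusted p = 0.0376), which passed in 7 of 19 alternatives (adjusted p 0.00153 to 0.194) and not without any 1 of HKO PA replicates 1, 2 and 3 or FLOX PA replicates 1, 2 and 3 (adjusted p 0.0578 to 0.117), nor without both FLOX libraries numbered 1 (-0.15, adjusted p = 0.0665). With vehicle the difference was -0.13 ± 0.054 (limma adjusted p = 0.146). That difference passed with quantile normalization (-0.22, adjusted p = 0.00793), without both FLOX libraries numbered 1 (-0.17, adjusted p = 0.0401) and with quality weights (-0.14, adjusted p = 0.0355).

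Apoc2 (ENSMUSG00000002992), the cofactor of lipoprotein lipase, differed between genotypes with vehicle. It was 2395, 2338, 2226 and 2412 TPM in HKO cells with vehicle, against 2850.3, 2838, 3019 and 2967 TPM in FLOX cells with vehicle. No samples overlapped, and HKO cells were lower by a log2 fold change of -0.32 ± 0.086 (limma adjusted p = 0.0259), or 0.803 times the FLOX mean. This passed in 12 of 19 alternatives (adjusted p 3.59e-04 to 0.109) and not without any 1 of HKO vehicle replicates 2 and 3 or FLOX vehicle replicates 3 and 4 (adjusted p 0.0577 to 0.0740), nor with median-ratio scaling. With PA Apoc2 was 2812, 2651, 2793 and 2220.2 TPM in HKO cells, against 3694, 2804, 2672 and 2901 TPM in FLOX cells. These groups overlapped, and the difference of -0.20 ± 0.086 did not pass (limma adjusted p = 0.184). The response to PA was 0.15 ± 0.086 in HKO cells and 0.037 ± 0.086 in FLOX cells, and neither passed (limma adjusted p = 0.164 and 0.773). The HKO value passed without HKO PA replicate 4 (0.23, adjusted p = 0.0320) and with quality weights (0.20, adjusted p = 0.0208), and the FLOX value turned its sign without FLOX PA replicate 1 (-0.064). Reads of Apoc2 could be shared with Gm44805, a gene on the same strand that overlaps it and reached at most 14.6 TPM.

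Apoc3 (ENSMUSG00000032081), which restrains lipolysis and uptake of triglyceride-rich particles, averaged 2519.5 ± 110 TPM in HKO cells with PA, 2849 ± 133 TPM in HKO cells with vehicle, 2648 ± 206 TPM in FLOX cells with PA and 2719 ± 120 TPM in FLOX cells with vehicle. It fell with PA in HKO cells by 0.18 ± 0.052, with 1 PA sample above the lowest vehicle sample (limma adjusted p = 0.0127). In FLOX cells it differed by -0.040 ± 0.052 (95% confidence interval -0.15 to 0.071, limma adjusted p = 0.581). Genotypes differed by -0.069 ± 0.052 with PA, a sign that turned under quantile normalization (0.031) and the length correction (0.0033), and by 0.067 ± 0.052 with vehicle, and neither passed (limma adjusted p = 0.492 and 0.487). The difference with vehicle passed with quantile normalization (0.16, adjusted p = 0.0236) and the length correction (0.13, adjusted p = 0.0293).

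None of the 10 genes passed the test of the difference between the HKO and FLOX responses to PA (limma, adjusted p under 0.05), in which 0.194% of all genes did. At an unadjusted p under 0.05 there were 2, Apoa4 and Apob. That threshold is looser than the one behind the 0.194%, and the share of all genes at it is not given here. The median difference over the 10 genes was -0.11, beside 0.015 over all genes tested. A gene that passed with PA in a single genotype, such as Mttp or Apob, is therefore not shown to respond differently in the other.

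Ratios of gene pairs within a sample do not depend on a factor that scales all genes of that sample alike. Quantile normalization and the length correction act on genes unequally, and the ratios were not run under them. The ratios show that a pair changed unequally, not which of them changed. Of 28 comparisons (7 ratios in 4 contrasts) 25 passed an exact two-sided permutation test of 4 against 4 samples, each at p = 0.0286, the smallest p that this design allows, and an adjusted p of 0.032 by Benjamini-Hochberg over the 28. The 25 are not separate pieces of evidence, and the adjusted p of each depends on how many of them share the smallest p. Apoa1 is the denominator for Apoa4, Apoa5, Apoc3 and Apoa2, and its own groups did not overlap in any of the 4 contrasts. Apoe is the denominator for Apoc1 and Apoc2, and no share over other gene pairs is given. The ratio of Apoa4 to its neighbour Apoa1 averaged 0.524 ± 0.016 in HKO cells with PA, 0.121 ± 0.0094 in HKO cells with vehicle, 0.344 ± 0.019 in FLOX cells with PA and 0.0683 ± 0.0026 in FLOX cells with vehicle. Its log2 difference with PA was 2.11 in HKO cells and 2.33 in FLOX cells, and between genotypes it was 0.61 with PA and 0.83 with vehicle, higher in HKO cells. Groups did not overlap in this ratio in any of the 4 contrasts. The other genes of the chromosome 9 cluster also rose relative to Apoa1, by 0.73 and 0.75 for Apoa5 and by 0.36 and 0.39 for Apoc3 with PA in HKO and FLOX cells, as did Apoa2 on chromosome 1, by 0.39 and 0.37.

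Mttp relative to Apob, the pair that acts together in assembly, was 0.103, 0.102, 0.0987 and 0.102 in HKO cells with PA, against 0.0811, 0.0864, 0.0829 and 0.0836 in HKO cells with vehicle. FLOX cells had 0.112, 0.121, 0.114 and 0.123 with PA, against 0.0947, 0.0919, 0.0967 and 0.101 with vehicle. The ratio was higher with PA in both genotypes, by 0.28 and 0.29 on the log2 scale in HKO and FLOX cells. It was lower in HKO cells than in FLOX cells, by -0.22 with PA and -0.20 with vehicle. Groups did not overlap in any of these contrasts (exact permutation test, adjusted p = 0.032 each). That adjusted p depends on how many of the other ratios reached the smallest p, so it is no support particular to this pair. Apob and Mttp differ in transcript length (13934 and 3963 bases), and the part of the length imbalance in this ratio was not tested. Apoc2 relative to Apoe was higher with PA, by 0.32 in HKO cells and 0.23 in FLOX cells, and lower in HKO cells, by -0.30 with PA and -0.39 with vehicle. Apoc1 relative to Apoe passed in the contrast of HKO with FLOX cells under PA alone (-0.29). It did not pass with PA in HKO cells (-0.0070, exact permutation adjusted p = 0.943), with PA in FLOX cells (0.078, 0.178) or between genotypes with vehicle (-0.21, 0.0615).

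**Figure D4:**
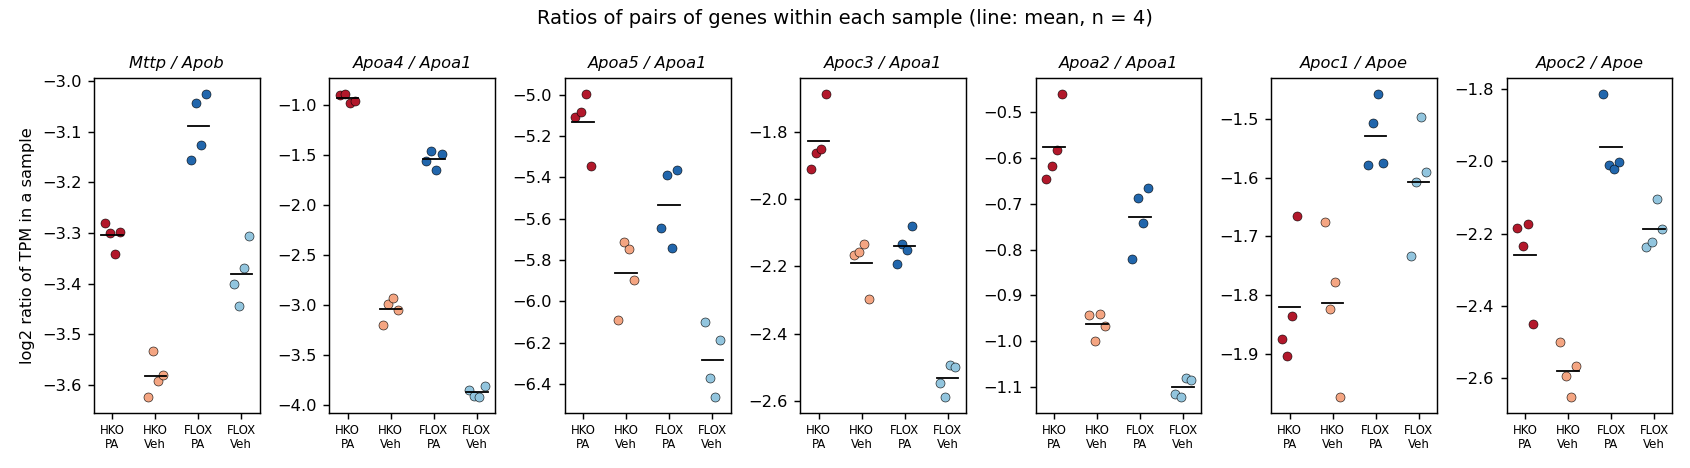
Log2 ratio of the TPM of 2 genes within each sample for 7 pairs, with HKO cells left of FLOX cells and PA left of vehicle. Points are samples and lines are group means. In the Apoa4 over Apoa1 panel the group means are -0.93 in HKO cells with PA, -3.04 in HKO cells with vehicle, -1.54 in FLOX cells with PA and -3.87 in FLOX cells with vehicle.

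Over the 16 samples, as a description that includes the differences between groups, Apoa4 and Apoa1 were the most opposed of the 10 genes (Pearson r of log2(TPM + 1) = -0.877), Apoa2 and Apoc1 the most alike (r = 0.901), and Mttp ran against Apoe (r = -0.715). Among all genes tested, those most like Apoa4 were Cd14 (r = 0.985), Impdh1 (r = 0.979) and Serpinb9e (r = 0.978). Those most like Mttp were Pttg1ip (r = 0.948), Flnc (r = 0.937) and Gpd2 (r = 0.924), and those most like Apob were Lrpprc (r = 0.951), Clpx (r = 0.902) and Chuk (r = 0.901). Apoe was most like H2-Q10 (r = 0.954), Tjp3 (r = 0.952) and Rnf181 (r = 0.950). The samples share their group differences and the imbalance by transcript length. That imbalance ran with treatment in FLOX cells except in the replicates 1, and in HKO cells except in vehicle replicate 2.

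Genes that act with the 10 in lipoprotein secretion went both ways with PA. Of 22 secretory partners of apoB lipoproteins, all tested, 7 rose and 8 fell in HKO cells, and 5 rose and 6 fell in FLOX cells. Over all genes, 29.4% rose and 13.1% fell in HKO cells, and 23.0% rose and 11.5% fell in FLOX cells. The mRNA editing pair was among them: Apobec1, the enzyme that edits the Apob message, rose by 0.71 ± 0.096 in HKO cells and 0.58 ± 0.096 in FLOX cells (limma adjusted p = 2.38e-05 and 2.28e-04), and A1cf, its partner, fell by 0.72 ± 0.12 and 0.53 ± 0.12 (limma adjusted p = 2.49e-04 and 0.00352). Sec24d, a coat protein of export vesicles from the endoplasmic reticulum, rose by 0.56 ± 0.099 in HKO cells and 0.68 ± 0.099 in FLOX cells (limma adjusted p = 3.00e-04 and 7.11e-05). The median of the list was 0.033 in HKO cells and 0.031 in FLOX cells, beside 0.11 and 0.096 over all genes. Between genotypes 2 were higher and 3 lower in HKO cells with PA, and 1 was higher and 4 lower with vehicle, with medians of -0.069 and -0.026. Over all genes, 4.24% were higher and 5.50% lower with PA, and 4.11% and 7.56% with vehicle. Cideb, a lipid droplet protein that aids lipidation of these particles, averaged 38.3 ± 2.2 TPM in HKO cells with PA and 28.2 ± 2.8 TPM in FLOX cells with PA, and 48.2 ± 2.2 TPM in HKO cells with vehicle and 39.0 ± 3.2 TPM in FLOX cells with vehicle. It was higher in HKO cells by 0.43 ± 0.072 with PA and 0.30 ± 0.072 with vehicle (limma adjusted p = 8.84e-04 and 0.0115). Pla2g12b, an inactive phospholipase relative needed for lipid loading in mice, was lower in HKO cells by a log2 fold change of -0.39 ± 0.067 with PA and -0.27 ± 0.067 with vehicle (limma adjusted p = 0.00103 and 0.0170). The Pla2g12b result with vehicle was lost under both other scalings and without FLOX vehicle replicate 3 or 4 (adjusted p up to 0.115).

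Among 10 tested genes of HDL formation (of 14 listed), 1 rose and 6 fell with PA in HKO cells, and 1 rose and 5 fell in FLOX cells, where 13.1% and 11.5% of all genes fell. Abca1, which loads cholesterol onto lipid-poor apoA-I, fell by 0.80 ± 0.17 in HKO cells and 0.71 ± 0.17 in FLOX cells (limma adjusted p = 0.00132 and 0.00410). It averaged 5.14 ± 1.1 TPM in HKO cells with PA, 9.61 ± 1.4 TPM in HKO cells with vehicle, 5.49 ± 1.2 TPM in FLOX cells with PA and 9.62 ± 2.1 TPM in FLOX cells with vehicle. Lcat, the enzyme that apoA-I activates, fell by 0.34 ± 0.038 in HKO cells and 0.35 ± 0.038 in FLOX cells (limma adjusted p = 3.55e-06 and 4.63e-06). The median of the list with PA was -0.25 in HKO cells and -0.19 in FLOX cells, beside 0.11 and 0.096 over all genes. Between genotypes 1 was higher and 2 lower in HKO cells under each treatment, with medians of 0.011 with PA and 0.037 with vehicle. Over all genes, 4.24% were higher and 5.50% lower with PA, and 4.11% and 7.56% with vehicle. Pltp, the phospholipid transfer protein, was lower in HKO cells, at 0.855 ± 0.15 TPM with PA against 3.61 ± 0.31 TPM in FLOX cells, and at 1.49 ± 0.34 TPM with vehicle against 4.77 ± 0.37 TPM in FLOX cells (-1.31 ± 0.10 with PA and -1.22 ± 0.10 with vehicle, limma adjusted p = 4.57e-07 and 9.95e-07). On the log2(TPM + 1) scale such low levels give folds that are too small. Pon1, an esterase carried on HDL, was lower in HKO cells by a log2 fold change of -0.35 ± 0.036 under both treatments (limma adjusted p = 7.12e-06 and 6.95e-06), and Lcat was higher, by 0.19 ± 0.038 with PA and 0.18 ± 0.038 with vehicle (limma adjusted p = 0.00513 and 0.00522).

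Of 15 other apolipoprotein genes tested (of 18 listed), 2 rose and 5 fell with PA in HKO cells, and 3 rose and 5 fell in FLOX cells. Over all genes, 29.4% rose and 13.1% fell in HKO cells, and 23.0% rose and 11.5% fell in FLOX cells. The list also holds Apobr, a receptor, which is among those that rose in both genotypes. Clu, which encodes clusterin (apoJ), reached 3924 ± 360 TPM in HKO cells with PA, 2508 ± 99.9 TPM in HKO cells with vehicle, 3105 ± 154 TPM in FLOX cells with PA and 2127 ± 55.7 TPM in FLOX cells with vehicle. That was above all 3 C apolipoproteins among the 10 genes in HKO cells with PA and below all 3 in FLOX cells with vehicle. It rose with PA by 0.64 ± 0.055 and 0.54 ± 0.055 in HKO and FLOX cells (limma adjusted p = 1.92e-07 and 1.65e-06), and was higher in HKO cells by 0.33 ± 0.055 with PA and 0.24 ± 0.055 with vehicle (limma adjusted p = 7.63e-04 and 0.0101). Apof, a modulator of cholesteryl ester transfer in humans, fell with PA by 0.60 ± 0.047 in HKO cells and 0.36 ± 0.047 in FLOX cells (limma adjusted p = 7.74e-08 and 2.41e-05). The median of the list with PA was 0.0033 in HKO cells and -0.0035 in FLOX cells. Apoc4, between Apoc1 and Apoc2 on chromosome 7, was 351 to 381 TPM in HKO cells with PA, against 394 to 463 TPM in FLOX cells with PA, and was lower in HKO cells by a log2 fold change of -0.22 ± 0.049 (limma adjusted p = 0.00973). This did not pass with median-ratio scaling (adjusted p = 0.103). Between genotypes 2 of the 15 were higher and 1 lower in HKO cells with PA, and 4 were higher and 0 lower with vehicle, with medians of 0.021 and 0.077. Over all genes, 4.24% were higher and 5.50% lower with PA, and 4.11% and 7.56% with vehicle.

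Transcription factors known to act on apolipoprotein genes were tested for 24 of 28 listed. With PA 6 rose and 4 fell in HKO cells, and 5 rose and 4 fell in FLOX cells, shares near the 42.5% and 34.4% of all genes that passed. Creb3l3, a membrane-bound hepatic factor known in mice to activate Apoa4 among other genes, averaged 233 ± 8.2 TPM in HKO cells with PA, 87.6 ± 5.5 TPM in HKO cells with vehicle, 256 ± 20 TPM in FLOX cells with PA and 82.9 ± 6.7 TPM in FLOX cells with vehicle. It rose by 1.40 ± 0.064 and 1.62 ± 0.064 on the log2 scale (limma adjusted p = 1.65e-10 and 7.74e-11). Nr1d1, the heme-binding repressor of the circadian clock, rose by 0.99 ± 0.095 and 0.61 ± 0.095 (limma adjusted p = 6.80e-07 and 1.36e-04). Among those that fell, Klf15 changed by -0.71 ± 0.093 in HKO cells and -0.85 ± 0.093 in FLOX cells (limma adjusted p = 1.67e-05 and 4.01e-06). Onecut1 changed by -1.15 ± 0.15 in HKO cells and -0.44 ± 0.15 in FLOX cells (limma adjusted p = 1.78e-05 and 0.0321). Both were low, with group means of 0.6075 to 2.955 TPM. The median of the list was -0.036 in HKO cells and -0.045 in FLOX cells. Between genotypes 3 were higher and 1 lower in HKO cells with PA, and 2 higher and 2 lower with vehicle, with medians of 0.017 and 0.020. Over all genes, 4.24% were higher and 5.50% lower with PA, and 4.11% and 7.56% with vehicle. Nr1h4, the bile acid receptor FXR, was lower in HKO cells by a log2 fold change of -0.43 ± 0.070 with PA and -0.45 ± 0.070 with vehicle (limma adjusted p = 7.03e-04 and 4.97e-04).

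Of 18 genes listed for triglyceride supply to lipoproteins, 16 were tested, and 3 rose and 7 fell with PA in each genotype. Of all genes, 29.4% rose and 13.1% fell in HKO cells, and 23.0% rose and 11.5% fell in FLOX cells. The median of the list was -0.17 in HKO cells and -0.067 in FLOX cells, beside 0.11 and 0.096 over all genes. Lpin2, a phosphatidate phosphatase, rose by 1.05 ± 0.11 in HKO cells and 1.04 ± 0.11 in FLOX cells (limma adjusted p = 2.29e-06 and 3.70e-06). Acat2 fell by 0.88 ± 0.045 and 0.70 ± 0.045 (limma adjusted p = 5.25e-10 and 9.11e-09). It is a cytosolic thiolase of sterol synthesis, so it counts among the 7 that fell without being a supplier of triglyceride. Between genotypes 1 was higher and 3 lower in HKO cells with PA, and 2 higher and 1 lower with vehicle, with medians of -0.067 and 0.024. Over all genes, 4.24% were higher and 5.50% lower with PA, and 4.11% and 7.56% with vehicle. Hsd17b13, a lipid droplet protein of hepatocytes, was higher in HKO cells by 0.54 ± 0.050 with PA and 0.56 ± 0.050 with vehicle (limma adjusted p = 2.40e-06 and 1.83e-06), and Fitm1, which promotes lipid droplet formation, was lower, by a log2 fold change of -0.86 ± 0.11 with PA and -1.08 ± 0.11 with vehicle (limma adjusted p = 4.90e-05 and 4.97e-06). Of the receptors and uptake genes (14 tested of 15), 3 rose and 3 fell with PA in HKO cells and 1 rose and 3 fell in FLOX cells, with medians of -0.020 and -0.050. With PA 0 of these 14 passed between genotypes in the limma test, with 3 at an unadjusted p under 0.05, and with vehicle 1 did, Stab2, a scavenger receptor of liver endothelium, at 1.52 ± 0.41 TPM in HKO cells and 0.698 ± 0.022 TPM in FLOX cells (0.55 ± 0.12, limma adjusted p = 0.00853). Their medians between genotypes were -0.013 with PA and -0.096 with vehicle. In the limma test of the difference between responses 0 genes of these 6 lists passed, with 2 other apolipoprotein genes, 5 transcription factors and 2 genes of the triglyceride list at an unadjusted p under 0.05. The shares of all genes at that unadjusted threshold are not given here, so these counts, and that of the receptors, have no background beside them.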

How the data were processed

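RNA was taken from 16 samples of primary mouse hepatocytes, 4 in each group, and libraries were made with a stranded total RNA kit, per the labels' protocols. The authors deposited 1 table of TPM for 55416 Ensembl gene IDs. RSEM 1.3.3 is named in the submitters' processing notes, as is the human build GRCh38.p13, a build that mouse IDs cannot come from. The mouse build behind the TPM values is not given in the sources used here. Symbols and transcript lengths came from a mouse annotation table (52083 IDs matched, 94.0%). Column sums were 975816 to 984870 TPM, and 11231 to 11498 genes reached 1 TPM. TPM keeps no read depth, so no counting error is given.

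The values log2(TPM + 1) of 11858 genes with at least 1 TPM in at least 4 samples were fitted as 4 group means with limma 3.58.1 (R 4.3.3, intensity trend), with Benjamini-Hochberg adjustment over all genes, after the code was tested on simulated data with 200 changed genes. All 10 genes passed the filter. Fold changes of low genes are understated by the pseudocount. Ratios within samples were compared by exact permutation tests (Python 3.11.15). From each pathway list, up to 3 genes past the threshold with the largest change in each comparison could be named, with all 10 genes, Smpd3, and the 3 genes most correlated with Apob, Mttp, Apoa4 and Apoe. Apoc4 and values of a named gene in a further comparison were added beside them. The genes and lists were chosen with earlier results of these data known. Each choice was changed in turn: scaling (median-ratio or quantile), the filter (none, or 5 TPM), the pseudocount (0.1), the fit (without trend, with sample weights, with replicate number as a block, or on the groups compared alone) and the samples (each left out). Leaving out both FLOX libraries numbered 1 and a correction for transcript length were added after the data were seen.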

Additional observations from a re-analysis of the deposited data

Results flagged for a closer look

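In 72 groups of 4 samples (the 10 genes, their sum and the 7 ratios), 4 held a sample whose gap to the nearest other exceeded Dixon's 95% critical value, where chance gives about 1 in 20 groups, or 3.6. Apob was 459.55 TPM in FLOX vehicle replicate 1, against 385.53 to 395.79 TPM in the other FLOX vehicle samples. Apoa4 was 1122.98 TPM in FLOX vehicle replicate 4, against 1049.33 to 1059.62 TPM in the others. Apoc1 was 4341.84 TPM in FLOX PA replicate 1, against 3897.97 to 3969.31 TPM in the others. The log2 ratio of Apoc2 to Apoe was -1.81 in FLOX PA replicate 1, higher than in the other 3 FLOX PA samples. FLOX PA replicate 1 and FLOX vehicle replicate 1 are the libraries that stood apart by transcript length, and the part of that imbalance in these values was not tested.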

How the results depend on the processing

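Of 21 values of the 10 genes that passed, 8 passed in all alternatives run on them: Apoa4 and Apoa1 with PA in both genotypes, Apoa4 between genotypes with vehicle, Apoa1 and Mttp between genotypes with PA, and Mttp with PA in FLOX cells. Over 399 alternatives of the 21 values, 337 kept direction and passed, 60 kept direction without passing and 2 changed direction, and the cause was not tested. No filter left 2 genes past the threshold between genotypes with vehicle and 3 with PA. Median-ratio scaling left 1 and 3, no trend and only the groups compared left 3 with PA, and quantile normalization left 3 with PA in HKO cells. Leaving out 1 sample gave 6 to 9 genes with PA in HKO cells, 4 to 6 with PA in FLOX cells, 3 to 5 between genotypes with PA, 2 to 4 with vehicle and 0 for the difference between responses.

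Median-ratio scaling moved the summed level to 40009 TPM in HKO cells with PA, 47385 TPM in HKO cells with vehicle and 49458 TPM in FLOX cells with vehicle, and gave Mttp with PA in HKO cells -0.064 and Apoc2 with PA in FLOX cells -0.063. Quantile normalization changed the direction of Apoa2 (0.10), Apoe (0.039) and Mttp (-0.053) with PA in HKO cells, of Apoa2 (0.17), Apob (0.013) and Apoc2 (-0.016) with PA in FLOX cells, of Apoc3 between genotypes with PA (0.031) and of Apoe between genotypes with vehicle (-0.020). Quality weights gave 0.039 for Apob and -0.032 for Apoc2 with PA in FLOX cells. Without both FLOX libraries numbered 1, these were 0.086 and -0.075, and the difference between responses of Apoc1 was 0.013. Leaving out 1 sample gave -0.046 (without FLOX PA replicate 3) to 0.043 (without FLOX vehicle replicate 1) for Apob, with 0.026 without FLOX PA replicate 1, and -0.064 (without FLOX PA replicate 1) to 0.092 (without FLOX PA replicate 3) for Apoc2. Apoa5 between genotypes with PA was -0.0023, -0.039 and -0.067 without HKO PA replicate 1, HKO PA replicate 3 or FLOX PA replicate 3, and up to 0.11 without another sample. For Apoe the difference between responses was -0.0086 without FLOX PA replicate 3, and up to 0.077 without another sample. The length correction gave -0.072 for Mttp with PA in HKO cells, 0.0033 for Apoc3 between genotypes with PA and -0.025 for Apob between genotypes with vehicle.

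Same-numbered samples did not deviate together (8 pairs, r -0.15 to 0.086, against -0.11 to 0.13 for different numbers), so the numbers were not taken as pairs. With the replicate number as a block, 3191 genes passed with PA in FLOX cells and 4231 in HKO cells, against 4084 and 5040, and Apoc1 and Apoc3 with PA in HKO cells had limma adjusted p = 0.0757 and 0.0510. For the ratios, 0 passed, where 4 pairs cannot give an exact p below 0.125. Leaving out 1 sample cannot pass for ratios either, with a smallest exact p of 0.0571. Depth is unknown, so no detection limit can be set from TPM.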
